A study of Homo sapiens with 6 samples.

Results

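IL1B, CXCL8, CXCL2 and CCL5 encode 4 secreted inflammatory proteins, and all 4 were among the 5187 genes listed in the count files of this series. They were chosen by their measured counts in GABA-treated and control liver cancer cells, where they differed in opposite directions. The differences of these genes below are therefore descriptions, without a test. The RNA came from Huh7, an established human hepatocellular carcinoma line. Of the 6 libraries, 3 came from cells kept with GABA, the inhibitory neurotransmitter gamma-aminobutyric acid, over 24 h, and 3 from control cells, numbered 1, 2 and 3 as biological replicates in each group. The labels give no dose of GABA and do not say whether the replicates were grown or treated on separate days, so p-values measure the spread between these libraries.

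Interleukin-1 beta is made as an inactive precursor, cut by caspase-1 and released to act on the receptor IL1R1 and its partner IL1RAP. The receptor signals through MYD88 and TRAF6 to the IkB kinases, which free NF-kB to enter the nucleus and switch on cytokine and chemokine genes, with IL1B itself among them. CXCL8 (interleukin-8) and CXCL2 are CXC chemokines that attract neutrophils through CXCR2, and CCL5 (RANTES) is a CC chemokine that attracts T cells and monocytes. Hepatocytes and hepatoma cells can make several of these chemokines after interleukin-1 or tumour necrosis factor.

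IL1B (ENSG00000125538) lies on chromosome 2, CXCL8 (ENSG00000169429) and CXCL2 (ENSG00000081041) lie 353 kb apart in the CXC chemokine cluster of chromosome 4, and CCL5 (ENSG00000271503) lies on chromosome 17, in GENCODE release 29 on GRCh38. None of their annotated exons overlaps an exon of another gene. The stretches shown here are the 150 bases before the RefSeq start (build GRCh38.p14) of IL1B (chr2:112836780-112836929, minus strand), CXCL8 (chr4:73740419-73740568, plus strand) and CXCL2 (chr4:74099196-74099345, minus strand). The near-copies CXCL1 (chr4:73869243-73869392, plus strand) and CXCL3 (chr4:74038690-74038839, minus strand) are shown beside them. All 5 genes are counted here among NF-kB-driven secreted factors, and they moved in different directions. NF-kB activity was not measured. Capitals mark a match to any of the motifs searched.
IL1B: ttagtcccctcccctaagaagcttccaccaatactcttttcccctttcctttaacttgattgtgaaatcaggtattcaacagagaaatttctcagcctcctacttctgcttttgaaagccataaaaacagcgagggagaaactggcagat
CXCL8: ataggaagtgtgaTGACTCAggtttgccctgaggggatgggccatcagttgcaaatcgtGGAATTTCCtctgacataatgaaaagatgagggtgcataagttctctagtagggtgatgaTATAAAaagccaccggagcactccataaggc
CXCL2: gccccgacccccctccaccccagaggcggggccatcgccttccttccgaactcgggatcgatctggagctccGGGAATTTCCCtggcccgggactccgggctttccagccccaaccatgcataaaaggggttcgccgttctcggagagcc
CXCL1: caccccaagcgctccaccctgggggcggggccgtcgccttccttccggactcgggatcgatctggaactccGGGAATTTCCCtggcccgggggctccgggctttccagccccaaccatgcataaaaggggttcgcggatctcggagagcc
CXCL3: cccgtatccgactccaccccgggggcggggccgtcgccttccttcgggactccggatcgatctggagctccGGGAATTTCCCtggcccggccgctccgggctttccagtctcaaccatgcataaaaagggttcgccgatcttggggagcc

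Windows from 250 bases before to 50 bases after the start were searched on both strands for 6 motifs. These were the NF-kB consensus, a shorter NF-kB form (GGANTTTCC), the AP-1 site TGANTCA, the C/EBP form TTGCNNAA, the interferon response form GAAANNGAA and the TATA box TATAAA. CXCL2 held the NF-kB consensus at -78 to -69 and again on the opposite strand at -77 to -68. These matches overlap in 1 stretch of bases, which also holds the shorter form. CXCL1 and CXCL3 held such a stretch 1 base further out, at -79 to -69. CXCL8 held the shorter form at -91 to -83, an AP-1 match at -137 to -131 and a TATA box at -31 to -26. In IL1B the C/EBP form at -215 to -208 was the 1 match of the 6 motifs, and it lies before the printed bases. The NF-kB consensus was present in 11.3% of all 35116 RefSeq start windows, the shorter form in 1.64%, AP-1 in 7.71%, C/EBP in 10.5%, the interferon form in 8.11% and the TATA box in 11.5%. CXCL2 and CXCL3 also held the interferon form, at -217 to -209 and -233 to -225, and CXCL2 held the C/EBP form at -188 to -181. CXCL2, CXCL1 and CXCL3 therefore carried the NF-kB consensus within 1 base of the same distance from the start. A match is a description of letters and says nothing of binding.

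**Figure D1:**
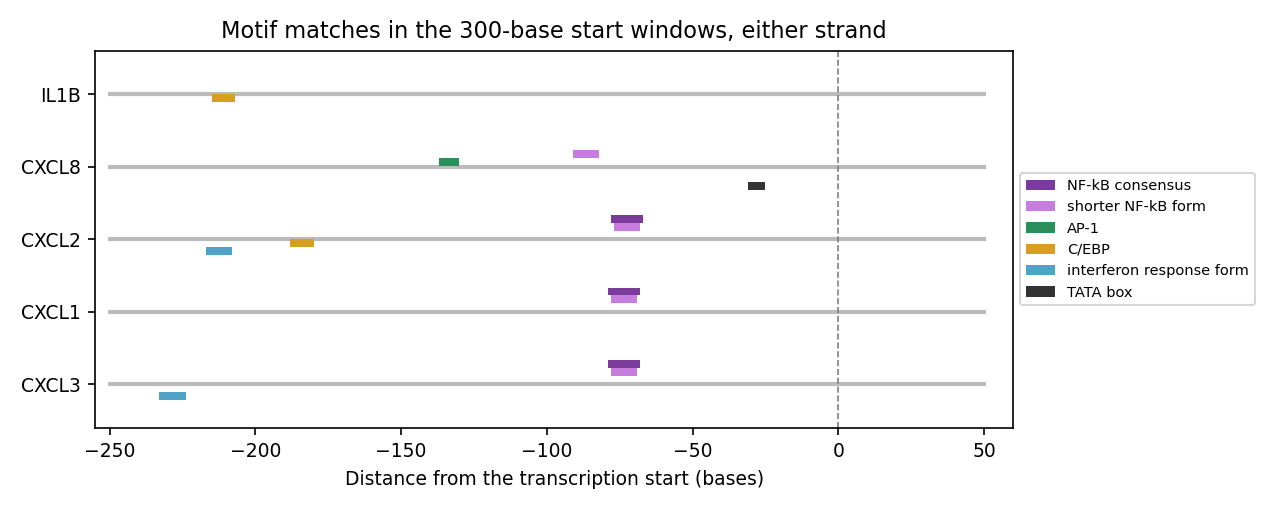
Each row is a gene and each bar a motif match, by distance in bases from the RefSeq start (dashed line), with the colour giving the motif. The NF-kB bars of CXCL2, CXCL1 and CXCL3 lie at about the same distance, CXCL8 has the shorter form at -91 to -83, and IL1B has the C/EBP form alone.

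The 3' untranslated end of CCL5 also differed from those of IL1B, CXCL8 and CXCL2. The pentamer ATTTA, the core of AU-rich elements that shorten the life of many cytokine mRNAs, was counted in the 3' end of the main coding transcript of each gene. The stretches of 30 bases with the most pentamers (GRCh38) were chr2:112830003-112830032 on the minus strand in IL1B, chr4:73743108-73743137 on the plus strand in CXCL8 and chr4:74097590-74097619 on the minus strand in CXCL2, with the pentamers in capitals.
IL1B: tgagcaaccgcttccctATTTATTTATTTA
CXCL8: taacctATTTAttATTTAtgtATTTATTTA
CXCL2: aagtcttctATTTATTTATTTATTTATTTA

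CXCL2 had 10 pentamers in 721 bases, CXCL8 had 9 in 1252 bases and IL1B had 6 in 610 bases. CCL5 had 0 in 886 bases. The median over the 4395 listed coding genes with a 3' untranslated end was 2 pentamers, and 29.1% of them had 0. In pentamers per kb, CXCL2 (13.9) was above 99.4% of those genes, IL1B (9.84) above 98.5% and CXCL8 (7.19) above 96.5%. The near-copies CXCL3 (10.4) and CXCL1 (7.08) were above 98.7% and 96.4% of them. Of the genes described here, the 3 dense in this element were IL1B and CXCL8, higher with GABA, and CXCL2, which was lower.

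IL1B had 120, 129 and 133 CPM in GABA replicates 1, 2 and 3, against 41.6, 44.5 and 39.0 CPM in control replicates 1, 2 and 3 (CPM are counts scaled to a common total over the listed genes, with TMM factors). Every GABA library lay far above every control library. The means were 128 ± 6.61 CPM with GABA and 41.7 ± 2.75 CPM in controls (SD, n = 3 each), a 3.05-fold higher level, and the fitted log2 fold change was 1.61 ± 0.09 (SE). These values rest on 936 to 1128 counts in the GABA libraries and 307 to 344 in the control libraries.

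CXCL8 had 124, 128 and 113 CPM in the GABA libraries, against 53.9, 64.3 and 75.7 CPM in the control libraries. The groups did not overlap, but the control libraries were spread widely, with replicate 3 the highest. The means were 122 ± 7.93 CPM with GABA and 64.6 ± 10.9 CPM in controls (SD, n = 3 each), with a log2 fold change of 0.91 ± 0.11 (SE), or 1.88-fold. Left out in turn, control replicate 1 and control replicate 3 gave the lowest and highest values, 0.80 and 1.04.

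CXCL2 had 30.4, 26.0 and 26.7 CPM in the GABA libraries, against 67.7, 61.5 and 71.7 CPM in the control libraries. All GABA libraries lay below all control libraries, and the means were 27.7 ± 2.41 CPM with GABA and 67.0 ± 5.15 CPM in controls (SD, n = 3 each). The log2 fold change was -1.27 ± 0.11 (SE), so that the level in controls was 2.42 times that with GABA.

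CCL5 had 13.4, 18.3 and 17.2 CPM in the GABA libraries, against 70.5, 73.5 and 65.5 CPM in the control libraries. Every GABA library lay well below every control library. The means were 16.3 ± 2.62 CPM with GABA and 69.9 ± 4.07 CPM in controls (SD, n = 3 each), with a log2 fold change of -2.10 ± 0.12 (SE), a level 4.28 times as high in controls. The GABA values rest on 104 to 146 counts a library.

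**Figure D2:**
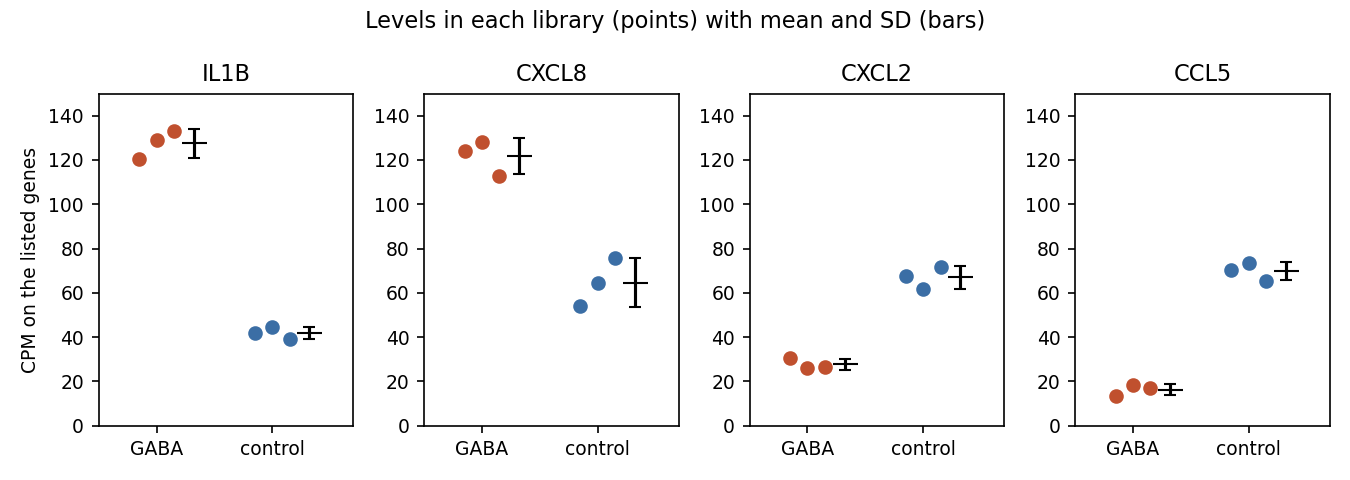
CPM on the listed genes in each library (points, replicates 1 to 3 from left to right) with the mean and SD (bars), GABA left and control right, on 1 linear scale. IL1B and CXCL8 are higher with GABA, CXCL2 and CCL5 are lower, and no gene has overlapping groups.

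These non-overlapping groups are what the files would show for nearly any gene. Of 4981 genes tested with edgeR, 4918 (98.7%) passed an adjusted p of 0.05, with 47.6% higher and 51.2% lower with GABA (48.2% of the called genes were higher, against 53.7% with DESeq2 size factors and 54.8% with DESeq2), and in 92.5% the 2 groups of libraries did not overlap (45.8% higher and 46.7% lower with GABA). The order of the listed genes follows this comparison: Spearman's rho between row number and p was 0.93 over the 4981 tested genes (a description), and the smallest absolute log2 fold change was 0.12. IL1B stood in row 2 of the files, CCL5 in row 3, CXCL2 in row 45 and CXCL8 in row 152. The listed genes thus appear to be chosen by this comparison. Passing the threshold is near the rule for any listed gene, and an adjusted p given here is no false discovery rate over all genes. In size, the absolute log2 fold change of CCL5 was above that of 99.4% of tested genes, that of IL1B above 97.7%, CXCL2 above 94.5% and CXCL8 above 87.4%, where the median was 0.40. The totals on listed genes ran from 7719243 to 8392945 counts in GABA libraries and from 7702666 to 8235028 in control libraries, and they are not library depths. Control replicate 3 stood apart in its share of mitochondrially encoded transcripts, 9.11% against 7.14% to 7.74% in the other controls and 6.66% to 7.04% in the GABA libraries. That library also held the highest control value of CXCL8 and CXCL2 and the lowest of IL1B and CCL5, and the part of that share in these values was not tested. Scaled without the mitochondrially encoded genes, no log2 fold change of the 4 genes moved beyond its replicate spread.

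The spread between libraries differed among the 4 genes. In controls the coefficient of variation was 16.8% for CXCL8, where counting alone would give 4.42%, and it was 7.69% for CXCL2, 6.59% for IL1B and 5.82% for CCL5, against counting values of 4.33%, 5.49% and 4.25%. With GABA the largest was that of CCL5, at 16.0% against 8.75% from counting, and IL1B had 5.18% against 3.13%. CXCL8 in controls and CCL5 with GABA had the widest relative spread of these levels.

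Set on a common scale per kb of annotated exon, IL1B and CXCL8 lay above CXCL2 and CCL5 with GABA and below them in controls. With GABA, CXCL8 was highest at 53.5 ± 3.49 CPM per kb, followed by IL1B at 41.2 ± 2.13, CXCL2 at 18.5 ± 1.60 and CCL5 at 10.8 ± 1.73 (SD, n = 3). In controls, CCL5 was highest at 46.2 ± 2.69 CPM per kb, followed by CXCL2 at 44.7 ± 3.43, CXCL8 at 28.4 ± 4.79 and IL1B at 13.5 ± 0.889. The ranges of neighbours in these orders did not overlap, with the exception of CCL5 and CXCL2 in controls. Length matters to the order: per kb of the main coding transcript alone, IL1B came first with GABA at 78.2 ± 4.05 and CXCL8 second at 71.4 ± 4.65, and CXCL2 came first in controls at 55.0 ± 4.23, with CCL5 at 51.2 ± 2.98. Among all tested genes, the exon-scaled level of IL1B was above 78.1% of genes with GABA and above 46.5% in controls. That of CCL5 was above 40.5% with GABA and above 80.9% in controls.

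Ratios of counts between genes of the same library need no scaling between libraries. There were 9.0, 7.04 and 7.73 IL1B counts per CCL5 count in the GABA libraries, against 0.590, 0.606 and 0.596 in the control libraries. The control ratios lay within a narrow band, and the mean ratio was 13.3 times as high with GABA. For CXCL8 over CXCL2 the ratios were 4.08, 4.94 and 4.23 in the GABA libraries, against 0.796, 1.05 and 1.05 in the control libraries, 4.57 times as high with GABA. A ratio shows unequal change and gives no direction to either gene: IL1B over CXCL8, both higher with GABA, averaged 1.05 ± 0.112 with GABA and 0.660 ± 0.131 in controls (SD, n = 3 each), and CXCL2 over CCL5, both lower, averaged 1.75 ± 0.465 and 0.964 ± 0.129.

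**Figure D3:**
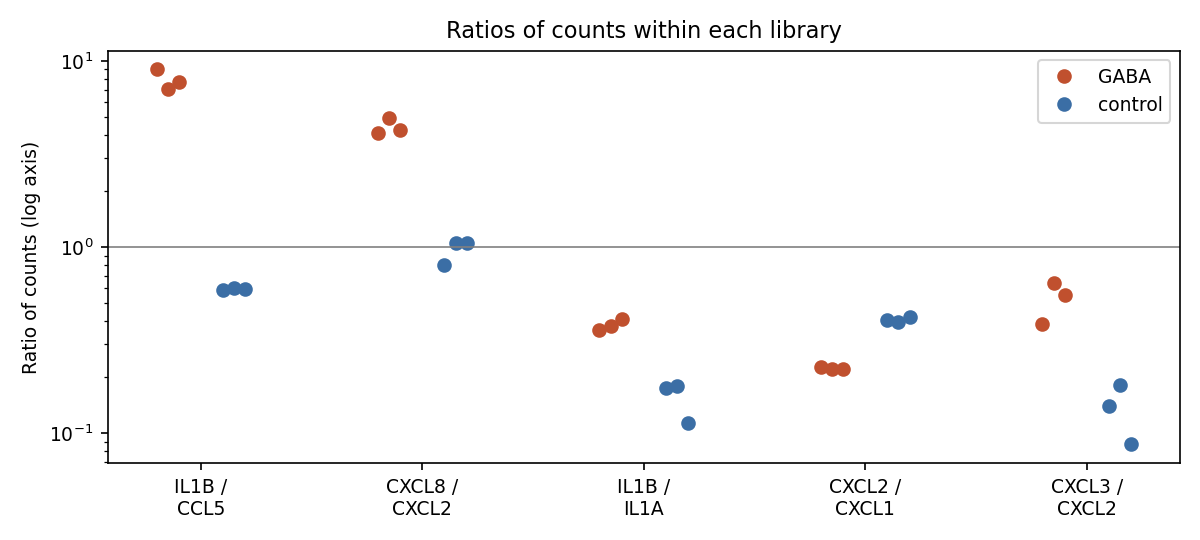
Ratios of counts within each library on a log axis, with GABA (left of each pair) and control libraries as points, and a line at a ratio of 1. IL1B over CCL5 lies between 7.04 and 9.0 with GABA and between 0.590 and 0.606 in controls, while CXCL2 over CXCL1 is lower with GABA.

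CXCL1, CXCL2 and CXCL3 are near-copies that arose by duplication and act through the same receptor, and they did not move together. CXCL1 had 135, 118 and 120 CPM in the GABA libraries, against 167, 155 and 170 CPM in the control libraries, and fell with a log2 fold change of -0.40 ± 0.08 (SE, edgeR quasi-likelihood test with Benjamini-Hochberg adjustment, adjusted p = 0.0011; lower in 3 of 3 libraries). CXCL3 had 11.7, 16.5 and 14.8 CPM in the GABA libraries, against 9.47, 11.1 and 6.23 CPM in the control libraries, and rose by 0.68 ± 0.22 (SE, edgeR adjusted p = 0.012). Without GABA replicate 2, CXCL3 missed the threshold (edgeR adjusted p = 0.052, the highest of 15 settings, the lowest being 0.0042). There were 0.226, 0.221 and 0.222 CXCL2 counts per CXCL1 count in the GABA libraries, against 0.406, 0.397 and 0.423 in the control libraries. Of the distinct windows of 50 bases in the CXCL2 transcripts, 12.5% occur exactly in CXCL1 or CXCL3, against 4.81% for CXCL1 and 6.01% for CXCL3, so part of their reads could be split among them by a counting program not given in the sources used here. Summed, the 3 genes had 166 ± 9.39 CPM with GABA and 240 ± 10.6 CPM in controls (SD, n = 3 each), a log2 ratio of the means of -0.53, and CXCL2 made up 16.6% of the sum with GABA and 27.9% in controls. IL1B and CXCL8 shared 0 such windows with any other gene. CCL5 shared 13.9%, with transcripts of 290 other genes.

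Around the 4 genes, listed neighbours within 1 Mb moved both ways. Next to IL1B lies IL1A, interleukin-1 alpha, a ligand of the same receptor. IL1A had 336, 343 and 324 CPM in the GABA libraries, against 238, 248 and 345 CPM in the control libraries, so that control replicate 3 overlapped the GABA group. Its log2 fold change was 0.27 ± 0.12 (SE, edgeR adjusted p = 0.038), which was lost in 5 of 15 settings, all with a library left out (control replicate 1 or 2, or any GABA replicate; adjusted p = 1.2e-08 to 0.18 over the 15 settings, from edgeR, DESeq2 or limma). Without control replicate 3 it was 0.46. IL1B counts per IL1A count were 0.358 to 0.410 with GABA and 0.113 to 0.179 in controls. Of the 9 listed neighbours of IL1B 4 were higher and 5 lower, and of the 10 of CCL5 9 were higher and 1, SLFN5, was lower. Of all tested genes 98.7% passed, 47.6% higher and 51.2% lower, and the neighbour counts were not tested. The chromosome 4 cluster held CXCL8 and CXCL3 as higher and CXCL1 and CXCL2 as lower.

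Other secreted products of NF-kB were found in both directions, as were tested genes at large. Of a list of 60 such factors 26 were listed, and beside the 4 genes described here the other 22 passed the test, 14 higher and 8 lower, where 98.7% of all tested genes passed, 47.6% higher and 51.2% lower. Their median log2 fold change without the 4 genes was 0.38, against -0.18 over all tested genes. Among those with the highest levels, PLAT (tissue plasminogen activator) was at 1105 ± 55.7 CPM with GABA and 371 ± 35.4 CPM in controls (SD, n = 3 each). GDF15, a stress-induced cytokine, was at 4241 ± 279 CPM with GABA and 3381 ± 322 CPM in controls, and PTX3, a pattern recognition protein, at 232 ± 8.42 and 175 ± 13.1 CPM. VEGFA, the endothelial growth factor, was the other way, at 172 ± 4.65 CPM with GABA and 225 ± 24.6 CPM in controls (log2 fold change -0.38 ± 0.08, SE). PLAU, urokinase, was at 700 ± 39.2 and 790 ± 47.0 CPM, of whose exons 31.1% overlap another gene. Its call was lost in 5 of 15 settings, those of DESeq2 size factors, DESeq2 and 3 with a library left out, control replicate 2, GABA replicate 1 or GABA replicate 3.

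Some of the other secreted factors were chosen for mention after their values were seen. The colony-stimulating factors CSF2 and CSF3, both low, were at 4.02 ± 0.639 and 4.01 ± 0.316 CPM with GABA, against 1.10 ± 0.220 and 1.47 ± 0.239 CPM in controls. INHBA, a subunit of activin A, had a log2 fold change of 1.36 ± 0.09 (SE), and IL11, a cytokine of the interleukin-6 family, 0.89 ± 0.17. PDGFB, a platelet-derived growth factor chain, had -0.98 ± 0.14, and IL15, a T cell growth factor, -1.05 ± 0.30. IL6 was at 70.3, 72.6 and 53.7 CPM in the GABA libraries, against 67.4, 82.9 and 89.8 CPM in the control libraries, which overlap, and its call (edgeR adjusted p = 0.048) was lost in 7 of 15 settings (adjusted p = 0.018 to 0.24 over all 15, from edgeR, DESeq2 or limma), among them leaving out control replicate 2 or 3 or GABA replicate 1 or 3.

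**Figure D4:**
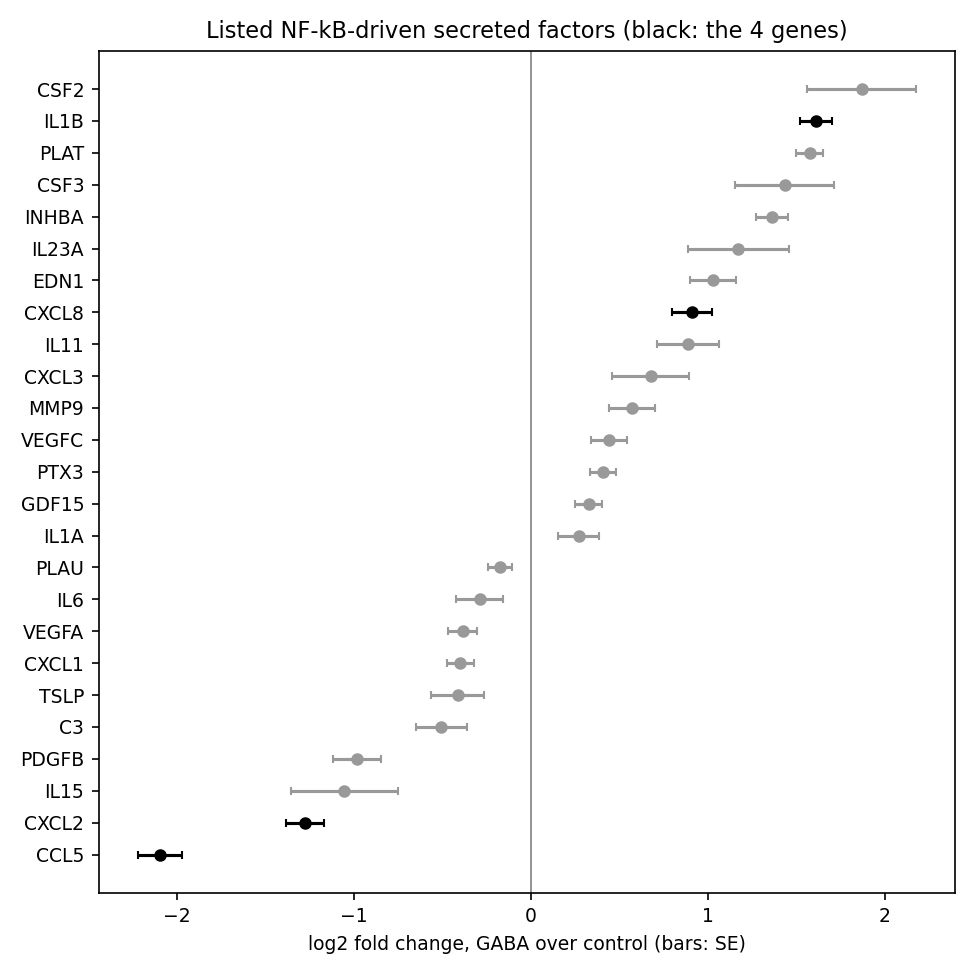
Log2 fold change, GABA over control, of listed NF-kB-driven secreted factors, with bars for the SE and the 4 genes in black. IL1B at 1.61 lies near the top and CCL5 at -2.10 at the bottom.

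Of 68 chemokines and chemokine receptors 7 were listed. Over all tested genes 98.7% passed, 47.6% higher and 51.2% lower. Without CXCL8, CXCL2 and CCL5, the other 4 of the 7 passed, 3 higher and 1 lower. Beside the chemokines above these were the receptors CXCR6, which binds CXCL16, at 7.55 ± 2.32 CPM with GABA and 2.85 ± 0.430 CPM in controls (SD, n = 3 each), and CXCR4, the receptor of CXCL12, at 3.18 ± 0.720 and 0.883 ± 0.676 CPM. Both were low and higher with GABA, with log2 fold changes of 1.41 ± 0.28 and 1.84 ± 0.43 (SE). Of 22 interleukin-1 family ligands and receptors 3 were listed. IL1RAP, the accessory receptor chain, fell with a log2 fold change of -0.50 ± 0.10 (SE, edgeR adjusted p = 0.0010), with 51.6, 52.4 and 52.4 CPM in the GABA libraries, against 67.5, 71.7 and 81.5 CPM in the control libraries. The ligand IL1B was thus higher and a chain of its receptor lower.

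Genes of interleukin-1 beta maturation and release, restraints included, were represented by 4 of 25, and all 4 were lower, as were 51.2% of all tested genes. TXNIP, a thioredoxin-binding protein that can bind the NLRP3 inflammasome, was at 413 ± 43.4 CPM with GABA and 931 ± 18.4 CPM in controls (SD, n = 3 each). NINJ1, which ruptures the plasma membrane in lytic cell death, had a log2 fold change of -0.43 ± 0.12 (SE). DPP8, a dipeptidyl peptidase that restrains NLRP1, had -0.29 ± 0.09. GSDME, a pore-forming gasdermin, had -0.17 ± 0.07, a call lost in 6 of 15 settings, with DESeq2 size factors, DESeq2, the replicate block or any GABA replicate left out. The gene of caspase-1 itself was not among the listed genes, which does not tell its level.

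In interleukin-1 and Toll-like receptor signalling, 4 of 6 tested genes (of 31 in the list) were higher and 2 lower, against 47.6% and 51.2% of all tested genes. MYD88, the adaptor of the receptor, fell with a log2 fold change of -0.38 ± 0.11 (SE, edgeR adjusted p = 0.0073), at 30.4 ± 1.79 CPM with GABA and 39.6 ± 3.06 CPM in controls (SD, n = 3 each). MAPK8, the kinase JNK1, rose by 0.29 ± 0.08. PELI1, a ubiquitin ligase of the pathway, had 0.47 ± 0.15, TLR3, the receptor for double-stranded RNA, 0.42 ± 0.14, TAB1, a partner of the kinase TAK1, 0.26 ± 0.09, and MAPK9, the kinase JNK2, -0.21 ± 0.08. The calls of PELI1 (without GABA replicate 2), TLR3 (without GABA replicate 3), TAB1 (without GABA replicate 1 or 2) and MAPK9 (7 of 15 settings, 5 with a library left out and 2 with DESeq2 or its size factors) were lost.

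Of 33 NF-kB subunits, kinases and inhibitors 11 were tested, with 4 higher and 7 lower, where 51.2% of all tested genes were lower. Their median log2 fold change was -0.23, against -0.18 over all tested genes. NFKB2, the p100 subunit, was at 247 ± 10.1 CPM with GABA and 350 ± 31.5 CPM in controls (SD, n = 3 each), and RBCK1, a subunit of the linear ubiquitin ligase, at 196 ± 3.70 and 265 ± 24.7 CPM. TRAF3 and MAP3K14, which restrain and drive the noncanonical branch, had -0.32 ± 0.07 and -0.23 ± 0.07 (SE), and BIRC2, a ubiquitin ligase, had -0.26 ± 0.08. TNIP1, a partner of the inhibitor A20, rose by 0.31 ± 0.07. TNFAIP3, which encodes A20 and is itself an NF-kB target, was named after its values were seen: it had 68.3, 64.5 and 60.3 CPM in the GABA libraries, against 26.2, 27.4 and 26.7 CPM in the control libraries (log2 fold change 1.26 ± 0.10, SE). BCL3, a nuclear IkB protein also named after its values were seen, had -0.61 ± 0.11.

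The intracellular and surface targets of NF-kB were also split, with 4 of 12 tested genes higher, 7 lower and 1 not past the threshold, and a median of -0.28 against -0.18 over all tested genes. Over all tested genes 98.7% passed, 47.6% higher and 51.2% lower. F3, tissue factor, was at 2423 ± 46.2 CPM with GABA and 1313 ± 62.1 CPM in controls (SD, n = 3 each), CD44, the hyaluronan receptor, at 3871 ± 72.5 and 3079 ± 105, and HIF1A, a hypoxia factor, at 666 ± 15.4 and 500 ± 82.7 CPM. SQSTM1, the autophagy receptor p62, was at 2472 ± 38.5 CPM with GABA and 4220 ± 231 CPM in controls, with 22.0% of its exons overlapping other genes. PSMB9, an immunoproteasome subunit, had -0.36 ± 0.09 (SE). XIAP, an apoptosis inhibitor, had -0.14 ± 0.06 (edgeR adjusted p = 0.0504) and did not pass.

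Partner factors and the interferon arm complete the setting of these promoters. Of 11 tested AP-1, C/EBP and early growth response factors 5 were higher, 5 lower and 1 not past the threshold, close to the shares of all tested genes. JUN, an AP-1 subunit, was at 1110 ± 61.6 CPM with GABA and 796 ± 87.5 CPM in controls (SD, n = 3 each), and JUND at 218 ± 3.49 and 176 ± 7.61 CPM. MAFG, a small MAF factor, had a log2 fold change of -0.43 ± 0.07 (SE), and CEBPG, a C/EBP factor, -0.39 ± 0.08. ATF3, a stress-induced factor, had -0.49 ± 0.11, a call lost without control replicate 3. In the interferon list 10 of 14 tested genes were lower and 4 higher, and 7 to 10 were lower over the 15 settings, where 51.2% of all tested genes were lower. The median log2 fold change of the list was -0.25, against -0.18 over all tested genes. CCL5 is a known target of interferon regulatory factors. IRF1, 1 of these factors, had 26.6, 28.8 and 27.4 CPM in the GABA libraries, against 41.5, 37.8 and 35.1 CPM in the control libraries, and 22.0% of its exons overlap another gene. TRIM25, a ubiquitin ligase of RIG-I, had -0.57 ± 0.07, and OAS3 and SAMD9, both interferon-induced, had 0.36 ± 0.08 and 0.42 ± 0.08. IRF1 was named after its values were seen, and its part in the values of CCL5 was not tested.

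Of the factors that bind or remove AU-rich mRNAs, 11 of 31 were tested, 5 higher and 6 lower. Their median log2 fold change was -0.18, and that over all tested genes was -0.18. Over all tested genes 98.7% passed, 47.6% higher and 51.2% lower. DUSP1, a phosphatase that limits p38 and with it the stability of such mRNAs, was at 612 ± 51.6 CPM with GABA and 424 ± 36.7 CPM in controls (SD, n = 3 each). HNRNPD, the decay factor AUF1, rose by 0.40 ± 0.11 (SE, edgeR adjusted p = 0.0066). DCP2, the decapping enzyme, had -0.44 ± 0.07. ELAVL1, the stabilising factor HuR, had 0.21 ± 0.07 and lost its call without GABA replicate 3. The lower count was 3 with DESeq2 size factors, with DESeq2 or without any of the GABA replicates.

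**Figure D5:**
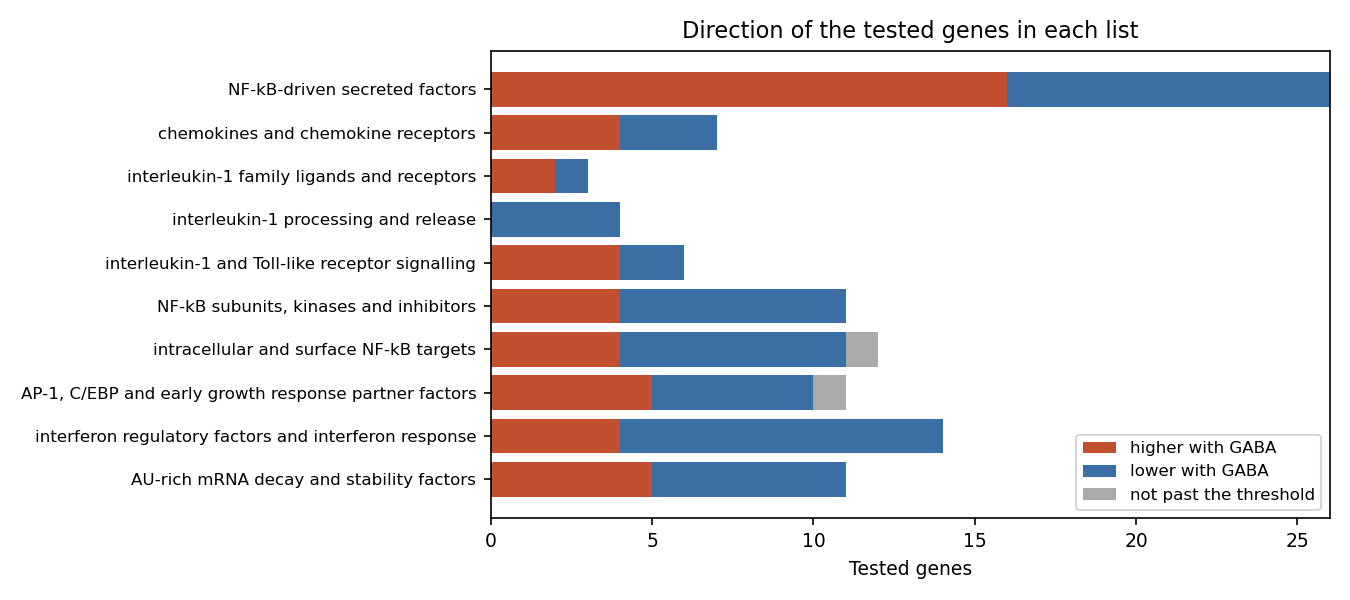
Number of tested genes in each list that passed higher with GABA, lower with GABA or not past the threshold. Each list but interleukin-1 processing and release, where all 4 are lower, holds genes of both directions.

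By profile over the 6 libraries, the listed genes most like each of the 4 were found by Pearson r of log2 CPM among 4305 genes at a mean of 10 CPM or more. For IL1B these were MMP24OS, HPCAL1 and RNASEH2C (r = 0.9990 to 0.9995), for CXCL8 STK36, LINC01569 and CEP350 (0.998 to 0.999), for CXCL2 SERPINB8, ABCC4 and CNNM1 (0.9992 to 0.9998) and for CCL5 PIGZ, SEL1L3 and SRSF4 (0.994 to 0.999). These r values are a description: they follow the 2 groups, on which the listed genes appear to be chosen, and say nothing of the size of a change, since CEP350 had a log2 fold change of 0.21 and CXCL8 0.91. At 0.99 or more there were 67 genes for IL1B, 20 for CXCL8, 40 for CXCL2 and 19 for CCL5.

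Leukocytes are a usual source of interleukin-1 beta and CCL5, and their markers were looked at for that reason. Of 20 leukocyte markers 1, HLA-DRA, was among the listed genes, at 122, 132 and 122 CPM in the GABA libraries and 98.8, 107 and 99.7 CPM in the control libraries. Of 15 endothelial and fibroblast markers 3 were listed, with summed levels of 55.8 to 61.1 CPM with GABA and 56.6 to 73.2 CPM in controls. These sums hide opposite moves: COL3A1, a fibrillar collagen, was at 31.6 ± 3.99 CPM with GABA and 20.0 ± 2.00 CPM in controls (SD, n = 3 each), ESAM, an endothelial adhesion molecule, at 6.85 ± 1.92 and 4.09 ± 0.763, and PDGFRB, a growth factor receptor of fibroblasts, at 20.2 ± 1.46 and 40.3 ± 6.23 CPM. The ESAM groups overlapped, and its call was lost in 3 of 15 settings (without control replicate 1, GABA replicate 1 or GABA replicate 3). The part of these markers in the values of the 4 genes was not tested. The identity of Huh7 rests on the label: of 16 hepatocyte and Huh7 markers 3 were listed, KRT8, KRT18 and FOXA1. Their summed levels were 10061 to 11284 CPM with GABA and 8575 to 11078 CPM in controls. ALB and AFP were not among the listed genes, which does not tell their level. FOXA1, a liver transcription factor, was low, at 1.04 ± 0.342 CPM with GABA and 2.64 ± 0.132 CPM in controls (log2 fold change -1.33 ± 0.34, SE), while the keratin KRT8 had 0.21 ± 0.09 and KRT18 had -0.21 ± 0.09. The call of KRT8 was lost in 3 of 15 settings, each with a GABA replicate left out. That of KRT18 was lost in 6 of 15, among them DESeq2 and library size only, and its groups overlapped. KRT8 and KRT18 overlap each other in 7.63% and 16.3% of their exons. In bulk RNA, a change in the share of cells that make a transcript and a change in RNA per cell cannot be told apart.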

How the data were processed

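RNA-seq of 6 Huh7 libraries was used as deposited: 1 file per library with whole-number read counts per Ensembl gene, which the authors deposited without normalization. The submitters' processing notes name Bowtie 0.12.2, CASAVA 1.8 and the build hg38, with no roles. The counting program, annotation release and use of strand are not given in the sources used here. All 5187 identifiers were found in GENCODE release 29. A table of gene names gave 5173 symbols, and GENCODE the other 14. Start sequences are from RefSeq (GRCh38.p14), whose table matched IL1B, CXCL8 and CXCL2, and not CCL5, and 3' ends from GENCODE transcripts.

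Counts were tested across all listed genes with edgeR 4.0.16 in R 4.3.3 (filterByExpr with minimum count 10 and minimum total 15, TMM, robust quasi-likelihood F test, Benjamini-Hochberg adjustment, threshold 0.05), which kept 4981 genes and dropped 206. Each fold change is GABA over control. CPM are relative to listed genes. TMM and DESeq2 size factors assume that most genes are unchanged, while 98.7% of tested genes passed here. The zero point of each fold change is therefore uncertain, which weighs most on small changes. The median log2 fold change was -0.18 with TMM and -0.13 with DESeq2 size factors. The scripts were tested on simulated data with 200 changed genes and the rest unchanged. In the real data 98.7% of tested genes passed, so the simulated setting was unlike them. The 4 genes, the gene lists and the rule for naming genes were chosen with earlier results of these data known. The rule named each tested gene of a list of at most 8, otherwise the 8 with the highest mean CPM, and the 3 genes most like each of the 4. Some of the genes it names are not reported here. Alternatives were other scalings and filters, DESeq2 1.42.0, limma 3.58.1 (voom), the replicate number as a block and each library left out. The scaling without mitochondrially encoded genes, the sum of CXCL1, CXCL2 and CXCL3, the main transcript length, the ATTTA counts, shared windows, ratios and neighbours were chosen after seeing the data. Tables and figures used Python 3.11.15, pandas 2.3.3 and matplotlib 3.10.9.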

Additional observations from a re-analysis of the deposited data

How the results depend on the processing

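The log2 fold changes of IL1B, CXCL8, CXCL2 and CCL5 kept their sign in each of the 15 settings run. Since the listed genes are those that differ, this is no measure of stability. Over other scalings, filters and tools and the replicate block they ran from 1.61 to 1.66, 0.91 to 0.96, -1.28 to -1.23 and -2.10 to -2.05, and with a library left out from 1.56 to 1.66, 0.80 to 1.04, -1.35 to -1.23 and -2.19 to -1.97. The sum of CXCL1, CXCL2 and CXCL3 gave -0.53 in place of -1.27 for CXCL2 alone, by its construction. Called genes numbered 4324 (DESeq2) to 5131 (no filter), and 4025 to 4735 with a library left out. Same-numbered libraries did not deviate together (correlations 0.0003, -0.089 and -0.036). With 3 libraries in each group, these correlations cannot tell whether same-numbered libraries were paired. The replicate block called 4823 genes. Among 100 other genes of the lists, 120 of 1500 gene and setting values lost a call and 4 gained one, and 0 changed sign. A list count of genes higher or lower moved by over 1.5 times in 8 of the 15 settings (DESeq2 size factors, DESeq2 and each library left out), and the cause was not tested. The lower count of receptor signalling moved in 7, and the higher count of the interleukin-1 family and the lower count of AU-rich decay in 5 each. With DESeq2 size factors and with DESeq2, 1 gene of interleukin-1 and Toll-like receptor signalling was lower, and 3 of AU-rich decay. With a library left out, the interleukin-1 family list held 1 to 2 higher, the receptor signalling list 2 to 4 higher and 1 to 2 lower, the AP-1 and C/EBP list 3 to 5 higher, and the AU-rich list 3 to 5 higher and 3 to 6 lower. Searched on the given strand alone, the start windows of IL1B, CXCL8 and CXCL2 held 7 motif matches in place of 9. By Spearman's rho 8 of the 12 most alike genes stayed at the highest value. That value was shared by 103 genes for IL1B, 44 for CXCL8, 107 for CXCL2 and 39 for CCL5, so it does not single them out. Genes that did not respond are nearly absent from the files, and depth on all genes is unknown, so a lack of change cannot be read.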
